A study of Mus musculus with 6 samples.

Results

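The netrins and netrin receptors examined here are 8 genes, taken by symbol from the 55401 genes of the count table: the ligands Ntn1 and Ntn4 and the receptors Unc5a, Unc5b, Unc5c, Unc5d, Neo1 and Dcc. They were chosen on the values of the Thbs2KO to WT comparison itself, because a ligand was lower and a receptor higher in Thbs2KO. Their differences between genotypes are therefore given as a description, with no test. The material was cancer-associated fibroblasts (CAFs), which are activated stromal cells of a tumour, grown in serum-containing medium on fibronectin-coated plates. The CAFs came from rectal tumours seeded orthotopically with mouse tumour organoids, and both groups share that origin and culture. In the Thbs2KO group (3 libraries) the host mice were Thbs2KO, that is, without functional Thbs2, the gene of the matricellular glycoprotein thrombospondin-2. In the WT group (3 libraries) the hosts were wild type. The age of the mice, the genotype of the organoids and whether replicates are separate animals were not stated in the sources at hand, so the spread between libraries may be technical.

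Netrins are secreted proteins related to the short arms of laminins. Netrin-1, encoded by Ntn1, guides axons and cells by binding receptors of the DCC and neogenin family, which mediate attraction, and of the UNC5 family, which mediate repulsion. Netrin-4, encoded by Ntn4, lies in basement membranes, where it binds the laminin gamma-1 chain and disturbs laminin network assembly. DCC and UNC5 proteins are also known as dependence receptors, which can promote cell death when no ligand is bound.

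Total expected counts ran from 19649066 to 20860335 in the Thbs2KO libraries and from 23061568 to 24417464 in the WT libraries. Levels are given as CPM, read counts scaled to library size with TMM factors. Thbs2, the targeted gene, measured 538.2, 424.7 and 412 CPM in Thbs2KO replicates 1, 2 and 3, against 2327, 4166 and 3705 CPM in WT replicates 1, 2 and 3. The groups did not overlap, with the Thbs2KO libraries lower (two-sided exact permutation p = 0.1, the smallest that 3 against 3 allows). No other pair was as similar as Thbs2KO replicates 1 and 2: their counts gave a chi-square over genes of 3.88 per degree of freedom, against 15.6 to 121.7 elsewhere. All 11 fibroblast markers were detected, with a summed level of 33731 to 52884 CPM in Thbs2KO and 34099 to 39331 CPM in WT. Abundant genes such as Col1a1 and Col1a2 dominate that sum, so it does not show that each marker was level. Pdgfra was higher in Thbs2KO (means of 1162 against 565 CPM) and Col1a1 lower (11672 against 13577 CPM), both with no overlap. The groups overlapped in the other fibroblast markers. The leukocyte marker Cd3e, the endothelial marker Cldn5 and the neural markers Sox10 and Snap25 had no read in any library. Other markers of the same lists were detected, so these zeros do not show that such cells were absent. The highest were Kdr (means of 31.5 CPM in Thbs2KO and 13.1 CPM in WT), Tubb3 (41.4 and 83.7 CPM) and Lyz2 (3.06 and 4.52 CPM). The sums of all lists are given below.

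For the Ntn4 ligand and for Unc5b, the most abundant UNC5 receptor transcript in each library, the 250 bases before the RefSeq transcription start are shown (GRCm38.p6, the mm10 assembly), because Ntn4 is the ligand that separates the groups and Unc5b carries most of the UNC5 signal. Capitals mark GGGCGG, the GC box bound by SP1-type factors, and CAGAC, the half-site recognised by SMAD proteins, each searched on both strands. The Ntn4 window is chr10:93640799-93641048 on the plus strand and the Unc5b window is chr10:60831582-60831831 on the minus strand. GENCODE M21 also has an Ntn4 transcript that starts farther upstream, at 93640681, so the Ntn4 window lies in an intron of that transcript and holds no exon bases.
Ntn4: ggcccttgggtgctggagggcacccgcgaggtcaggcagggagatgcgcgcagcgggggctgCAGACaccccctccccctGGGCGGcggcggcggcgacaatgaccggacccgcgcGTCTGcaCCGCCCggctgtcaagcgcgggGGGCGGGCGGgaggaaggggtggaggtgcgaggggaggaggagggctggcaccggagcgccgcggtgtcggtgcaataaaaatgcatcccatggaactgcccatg
Unc5b: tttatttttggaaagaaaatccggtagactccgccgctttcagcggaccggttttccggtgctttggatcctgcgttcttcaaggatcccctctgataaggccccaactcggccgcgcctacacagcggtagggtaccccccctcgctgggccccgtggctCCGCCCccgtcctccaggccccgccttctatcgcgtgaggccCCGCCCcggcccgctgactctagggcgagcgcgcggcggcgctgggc
The Ntn4 window held 4 GC boxes, of which the pair nearest the start overlap by 2 bases, and 2 SMAD half-sites. The Unc5b window held 2 GC boxes and no SMAD half-site. Among 32841 windows of the same length in the RefSeq table, 32.8% held a GC box and 42.2% a SMAD half-site. Neither window held the TEAD motif GGAATG or the AP-1 motif TGANTCA, which 12.6% and 6.75% of all windows held. Both windows were rich in CpG dinucleotides, with 26 in Ntn4 and 27 in Unc5b, against a median of 6 over all windows. The Unc5c window, which lies inside the first exon of a GENCODE transcript and is not printed, held 23 CpG dinucleotides and none of the 4 motifs. These matches are a description of the letters and were not tied to the expression values.

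Of the ligands, Ntn4 was far lower in Thbs2KO, while the Ntn1 values of the groups overlapped. Ntn4 (ENSMUSG00000020019.4, chromosome 10, 93640681 to 93747207, plus strand) measured 4.44, 5.04 and 4.79 CPM in Thbs2KO replicates 1, 2 and 3, against 47.6, 114.7 and 111.4 CPM in WT replicates 1, 2 and 3. The Thbs2KO libraries were close to each other and the groups were far apart, while WT replicate 1 was the low WT library. Its mean was 4.76 ± 0.299 CPM in Thbs2KO and 91.2 ± 37.9 CPM in WT (SD, n = 3 each), and the log2 fold change was -4.26. In reads, Ntn4 had 94, 103 and 98 in the Thbs2KO libraries and 1105, 2619 and 2658 in the WT libraries, so every library was well above the floor of 3 reads. No annotated gene shares exon bases with Ntn4. In these bulk libraries, fewer cells that express a gene and less RNA per cell cannot be told apart.

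Ntn1 (ENSMUSG00000020902.12, chromosome 11, 68209364 to 68400823, minus strand) measured 45.1, 59.0 and 73.0 CPM in Thbs2KO replicates 1, 2 and 3, against 84.5, 46.8 and 51.7 CPM in WT replicates 1, 2 and 3. The groups overlapped, and the highest library of all was WT replicate 1, the library that was lowest among WT for Ntn4. The means were 59.0 ± 14.0 CPM in Thbs2KO and 61.0 ± 20.5 CPM in WT, a log2 fold change of -0.05 that is smaller than the spread within either group. That sign turned in 4 of the 16 alternative settings, with values from -0.23 to 0.26.

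**Figure D1:**
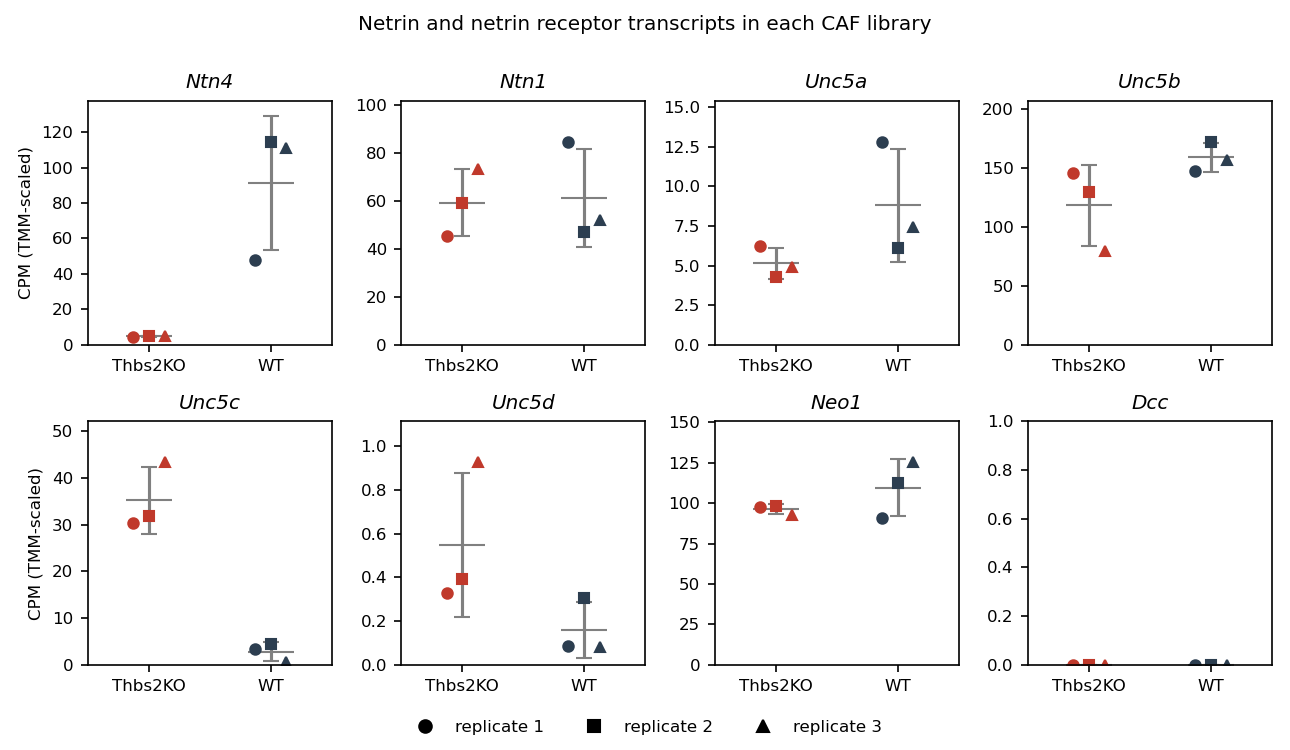
TMM-scaled CPM (vertical axes, linear from 0, a separate scale for each gene) of the 8 genes in the 3 Thbs2KO and the 3 WT libraries, with grey bars for the mean and SD of each group. Ntn4 lies at 4.44 to 5.04 CPM in Thbs2KO and 47.6 to 114.7 CPM in WT, Unc5c lies the other way at 30.4 to 43.4 CPM in Thbs2KO and 0.671 to 4.56 CPM in WT, and Dcc has no read.

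Of the receptors, Unc5c was the only member with a positive log2 fold change among the 6 that passed the filter on low counts. Unc5c (ENSMUSG00000059921.15, chromosome 3, 141465216 to 141834924, plus strand), whose loss in mice disturbs cerebellar cell migration, measured 30.4, 31.8 and 43.4 CPM in Thbs2KO replicates 1, 2 and 3, against 3.31, 4.56 and 0.671 CPM in WT replicates 1, 2 and 3. All Thbs2KO libraries were high, Thbs2KO replicate 3 most of all, and WT replicate 3 was the lowest. Its mean was 35.2 ± 7.15 CPM in Thbs2KO and 2.85 ± 1.98 CPM in WT (SD, n = 3 each), and the log2 fold change was 3.63. It had 643, 649 and 888 reads in the Thbs2KO libraries and 77, 104 and 16 in the WT libraries. The antisense gene Gm15688 shares 118 exon bases with Unc5c and had no read, although the kit does not mark strand, so its reads would be counted with those of Unc5c or the reverse.

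Unc5b (ENSMUSG00000020099.8, chromosome 10, 60762593 to 60831581, minus strand), a receptor known from vessel sprouting, measured 145.5, 129.1 and 79.6 CPM in Thbs2KO replicates 1, 2 and 3, against 147.7, 172.2 and 156.4 CPM in WT replicates 1, 2 and 3. The groups did not overlap, but the highest Thbs2KO library almost met the lowest WT library, and Thbs2KO replicate 3 was far below the others. The means were 118.1 ± 34.3 CPM in Thbs2KO and 158.8 ± 12.4 CPM in WT, a log2 fold change of -0.43. Without Thbs2KO replicate 3 the log2 fold change was -0.21.

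Unc5a (ENSMUSG00000025876.15, chromosome 13, 54949411 to 55006018, plus strand), another UNC5 receptor, measured 6.24, 4.31 and 4.89 CPM in Thbs2KO replicates 1, 2 and 3, against 12.8, 6.13 and 7.42 CPM in WT replicates 1, 2 and 3. The groups overlapped by a narrow margin, and WT replicate 1 stood highest. The log2 fold change was -0.77 with all libraries and -0.40 without WT replicate 1. Unc5d, on chromosome 8, had 7, 8 and 19 reads in Thbs2KO replicates 1, 2 and 3, against 2, 7 and 2 reads in WT replicates 1, 2 and 3. These correspond to 0.331, 0.391 and 0.929 CPM in Thbs2KO and to 0.0861, 0.307 and 0.0838 CPM in WT. The groups did not overlap in CPM, but WT replicate 2 lay close to the lower Thbs2KO libraries. Unc5d did not pass the filter on low counts and no fold change is given, since a pair of WT libraries lay under the floor of 3 reads.

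Neo1 (ENSMUSG00000032340.8, chromosome 9, 58874687 to 59036441, minus strand) encodes neogenin, which binds netrins and repulsive guidance molecules. It measured 97.9, 98.3 and 92.6 CPM in Thbs2KO replicates 1, 2 and 3, against 90.6, 112.3 and 125.6 CPM in WT replicates 1, 2 and 3. The groups overlapped, with WT replicate 1 as the lowest library of all. The means were 96.3 ± 3.17 CPM in Thbs2KO and 109.5 ± 17.6 CPM in WT, a log2 fold change of -0.19. Dcc, the attractive receptor on chromosome 18, had 0 reads in all 6 libraries. A count of 0 allows up to 3 reads per library, or 0.142 to 0.147 CPM in the Thbs2KO libraries and 0.126 to 0.131 CPM in the WT libraries.

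Across the fit of all genes, 1.09% of 13590 tested genes passed a Benjamini-Hochberg adjusted p of 0.05, 0.552% higher and 0.537% lower in Thbs2KO. Among the 6 tested members 1 was past that threshold and higher (Unc5c) and 1 was past it and lower (Ntn4). As the members were picked on this contrast, nothing is read from that share. Among the 6 tested members, the groups did not overlap in 1 that was higher (Unc5c) and in 2 that were lower (Ntn4 and Unc5b), beside 9.37% and 10.3% of all tested genes (19.7% in all), and the same holds for this count. The median log2 fold change of the 6 was -0.31, beside -0.0038 over all tested genes. Across the 16 alternative settings the log2 fold change stayed between -4.57 and -4.05 for Ntn4 and between 3.16 and 4.16 for Unc5c. Without Thbs2KO replicate 1, Thbs2KO replicate 2, Thbs2KO replicate 3, WT replicate 1 or WT replicate 2, Unc5c was not past the threshold, and without Thbs2KO replicate 1 neither was Ntn4. With Thbs2KO replicates 1 and 2 summed as 1 library, neither passed, at log2 fold changes of -4.26 for Ntn4 and 3.71 for Unc5c. Unc5c also did not pass with no filter, with a replicate block, or with WT replicate 1 and Thbs2KO replicate 3 both left out. Of the 16 alternative settings, Unc5c passed in 7 and Ntn4 in 14. Neo1 passed in 1, with WT replicate 1 and Thbs2KO replicate 3 both left out, where 11.2% of all tested genes passed. Its log2 fold change there was -0.28. Ntn1, Unc5a and Unc5b passed in 0.

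Dividing CPM by the length of the union of exons in kilobases (RPKM) allows levels of different genes to be compared. In Thbs2KO the order of mean RPKM was Unc5b (18.9 ± 5.48), Neo1 (11.0 ± 0.364), Ntn1 (9.41 ± 2.23), Unc5c (1.84 ± 0.374), Ntn4 (1.27 ± 0.0800), Unc5a (1.24 ± 0.238) and Unc5d (0.0597 ± 0.0357; SD, n = 3 each). In that order the library ranges of Neo1 and Ntn1 overlapped, as did those of Ntn4 and Unc5a. In WT the order was Unc5b (25.4 ± 1.99), Ntn4 (24.4 ± 10.1), Neo1 (12.6 ± 2.02), Ntn1 (9.72 ± 3.27), Unc5a (2.11 ± 0.853), Unc5c (0.149 ± 0.104) and Unc5d (0.0172 ± 0.0139). There the ranges of Unc5b and Ntn4, of Ntn4 and Neo1, and of Neo1 and Ntn1 overlapped. Ntn4 thus stood at the 22.3 percentile of tested genes in Thbs2KO and at the 85.7 percentile in WT by mean RPKM. Unc5c stood at the 28.1 percentile in Thbs2KO and at the 2.97 percentile in WT. Unc5c remained a minor receptor transcript in every library, below Unc5b and Neo1. Its RPKM depends on the length taken, since the longest Unc5c transcript (9646 bases) is far shorter than its exon union (19135 bases), but the order of the 7 genes in each group was the same with either length.

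The make-up of each set followed from these levels. Of the summed RPKM of Ntn1 and Ntn4, Ntn4 made up 14.2%, 12.5% and 9.91% in Thbs2KO replicates 1, 2 and 3, against 48.6%, 80.4% and 78.3% in WT replicates 1, 2 and 3. Ntn1 was thus the larger ligand transcript in all Thbs2KO libraries, and Ntn4 the larger in WT replicates 2 and 3. Of the summed RPKM of the 4 UNC5 genes, Unc5c made up 6.02%, 7.10% and 13.9% in Thbs2KO, against 0.645%, 0.814% and 0.131% in WT. With the length of the longest transcript in place of the exon union, these shares were 10.7%, 12.5% and 23.2% in Thbs2KO, against 1.196%, 1.505% and 0.243% in WT. By exon union, Unc5b made up 88.2%, 88.3% and 78.2% in Thbs2KO, against 87.9%, 94.0% and 93.2% in WT, so it was the main UNC5 transcript in every library. The summed UNC5 RPKM was 26.4, 23.4 and 16.3 in Thbs2KO, against 26.9, 29.3 and 26.8 in WT. By exon union, the family total was thus no higher in the Thbs2KO libraries. It was lowest in Thbs2KO replicate 3, the library with the most Unc5c and the least Unc5b. With longest-transcript lengths, which raise the Unc5c part, the family totals of the groups overlapped. The ratio of ligand RPKM to UNC5 RPKM was 0.317, 0.460 and 0.794 in Thbs2KO replicates 1, 2 and 3, against 0.975, 1.303 and 1.42 in WT replicates 1, 2 and 3. All 3 Thbs2KO libraries had the lower ratio, and it was not tested because its parts were picked on the same contrast. The ratio counts Ntn4 as a ligand, although UNC5 binding is described above for netrin-1 only, so it largely restates the Ntn4 difference. Ntn1 alone measured 7.18, 9.40 and 11.6 RPKM in Thbs2KO replicates 1, 2 and 3, against 13.5, 7.46 and 8.24 RPKM in WT replicates 1, 2 and 3, and the groups overlapped.

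**Figure D2:**
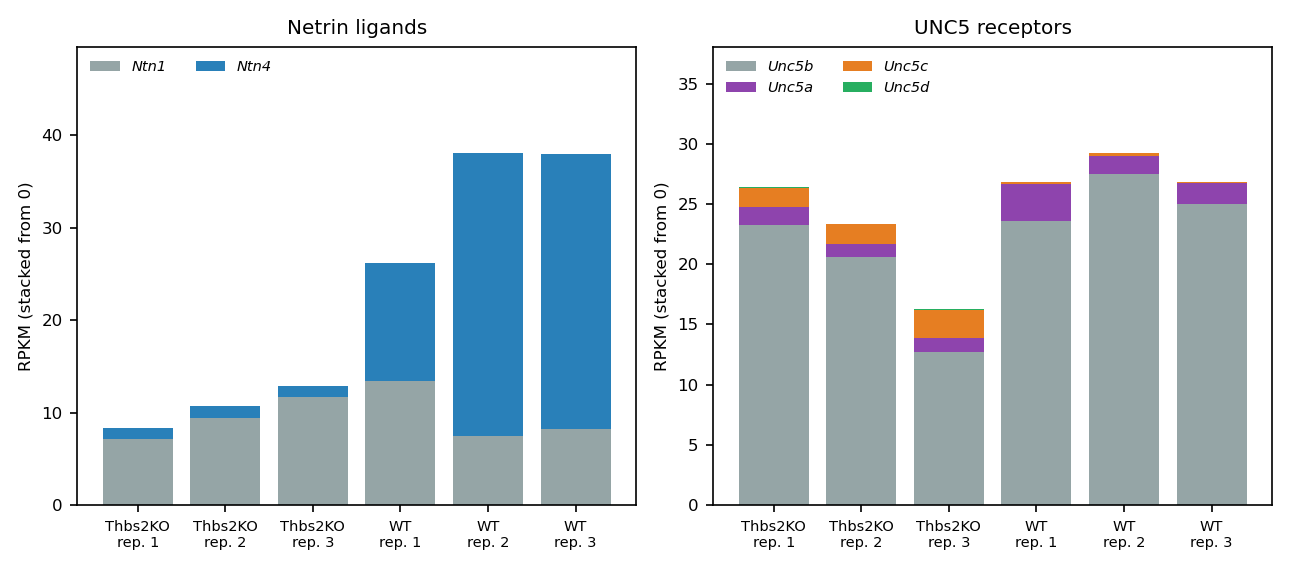
Stacked RPKM (vertical axes from 0) of the netrin ligands Ntn1 and Ntn4 (left) and of the 4 UNC5 receptors (right) in each library. The ligand total is 8.37 to 12.9 RPKM in Thbs2KO and 26.2 to 38.1 RPKM in WT, where Ntn4 makes up most of replicates 2 and 3, and Unc5b fills most of every receptor bar.

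The members also varied among libraries of 1 genotype. WT replicate 1 had the lowest Ntn4, Unc5b and Neo1 of the WT group and the highest Ntn1 and Unc5a. Thbs2KO replicate 3 had the highest Ntn1, Unc5c and Unc5d of its group and the lowest Unc5b and Neo1. Relative to the mean of the 6 libraries, on the log2(CPM + 0.5) scale, Ntn1 stood at 0.32 in Thbs2KO replicate 3 and at 0.53 in WT replicate 1, whereas Ntn4 stood at -2.0 in Thbs2KO replicate 3 and at 1.18 in WT replicate 1. Neo1 stood at -0.14 in Thbs2KO replicate 3 and at -0.17 in WT replicate 1, the lowest values of the 6 libraries. In the same order, Unc5a stood at -0.39 and 0.92, and Unc5c at 2.14 and -1.39. These libraries thus resembled each other in Ntn1 and Neo1, and not in Ntn4, Unc5a or Unc5c.

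Summed levels of the marker lists of other cell types were as follows. The endothelial list summed to 50.5, 33.2 and 32.2 CPM in Thbs2KO replicates 1, 2 and 3, against 11.8, 32.0 and 17.3 CPM in WT replicates 1, 2 and 3. The groups did not overlap in this sum, but Thbs2KO replicate 3 and WT replicate 2 were almost level. Kdr, its gene with the highest mean, measured 44.97, 28.0 and 21.5 CPM in Thbs2KO, against 2.497, 26.3 and 10.6 CPM in WT, and the groups overlapped. Pecam1 averaged 0.191 CPM in Thbs2KO and 0.199 CPM in WT, and Cldn5 had no read. The list of 8 neural and Schwann cell markers summed to 24.8 to 55.2 CPM in Thbs2KO and 75.3 to 94.0 CPM in WT, nearly all of it Tubb3. The epithelial list summed to 7.19 to 9.53 CPM in Thbs2KO and 19.8 to 26.2 CPM in WT, and its gene with the highest mean was Krt19. The groups did not overlap in either sum. The list of 7 pericyte and smooth muscle markers summed to 276.1 to 391.8 CPM in Thbs2KO and 198.0 to 856.8 CPM in WT, and the list of 7 leukocyte markers summed to 2.15 to 8.51 CPM in Thbs2KO and 3.72 to 13.9 CPM in WT, so the groups overlapped in both. Of the 48 markers in all lists, fibroblast markers included, 30 were tested. By edgeR 0 passed the threshold, beside 1.09% of all tested genes. At an unadjusted p under 0.05, 1 was higher and 5 lower in Thbs2KO, beside 5.72% and 7.56% of all tested genes. On the same markers limma-voom called 0, beside 1.08% of all tested genes. DESeq2 called 4 (Krt19, Krt20, Tubb3 and Pdgfra), beside 5.14% of all tested genes. The part of these cell types in the Ntn4 and Unc5c values was not tested.

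Other genes of the netrin pathway were taken from 5 lists of 69 genes in all, of which 60 were tested. By edgeR, 0 of the 60 passed the threshold, beside 1.09% of all tested genes. At an unadjusted p under 0.05, 6 were higher and 11 lower in Thbs2KO, where 5.72% of all tested genes were higher and 7.56% lower. DESeq2 called 1 higher (Casp9) and 3 lower (Lama5, Mcam and Ntng2), while calling 5.14% of all tested genes (2.21% higher and 2.93% lower), and limma-voom called 0, while calling 1.08% of all. Without WT replicate 1 edgeR called 4 (Enah, Flrt2, Lama5 and Mcam), beside 2.89% of all genes tested there, and without Thbs2KO replicate 3 it called 1 (Ezr), beside 0.792%. Leaving out both of these libraries gave 15 of the pathway genes, beside 11.2% of all genes tested there. Flrt2, outside the naming rule, is named here because the count is small.

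Among the 9 tested genes of the list of other ligands, 4 log2 fold changes were positive and 5 negative, with a median of -0.07. Whether each of them binds the member receptors was not examined. Ntng2, the membrane-anchored netrin-G2, measured 3.46 ± 0.602 CPM in Thbs2KO and 6.12 ± 0.216 CPM in WT (log2 fold change -0.82 with an SE of 0.179, edgeR, Benjamini-Hochberg adjusted p = 0.103). Draxin, a secreted ligand that binds DCC and netrin-1, measured 1.91 ± 0.680 CPM in Thbs2KO and 1.07 ± 0.136 CPM in WT (log2 fold change 0.82, edgeR, adjusted p = 0.337). Ntn3, the remaining secreted netrin that was tested, measured 1.75, 1.96 and 2.005 CPM in Thbs2KO, against 2.67, 1.53 and 1.09 CPM in WT. Ntn5 and Ntng1 had at most 1 read in any library. Rgma, a neogenin ligand singled out once its values were known, measured 50.5, 44.4 and 91.3 CPM in Thbs2KO, against 47.5, 22.1 and 20.5 CPM in WT, and the groups overlapped (edgeR, Benjamini-Hochberg adjusted p = 0.341).

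Among 8 tested further receptors, 2 log2 fold changes were positive and 6 negative, with a median of -0.18. Mcam, the surface glycoprotein CD146 that binds netrin-1, measured 4.26, 5.43 and 5.38 CPM in Thbs2KO, against 8.44, 13.8 and 12.5 CPM in WT. The groups did not overlap, and the log2 fold change was -1.21 with an SE of 0.220 (edgeR, Benjamini-Hochberg adjusted p = 0.0691). Itgb4, the integrin beta-4 chain, measured 1.195 ± 0.213 CPM in Thbs2KO and 1.76 ± 0.464 CPM in WT (edgeR, Benjamini-Hochberg adjusted p = 0.506). Robo4 and Dscaml1 had no read in any library.

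Among 25 tested intracellular effectors, 10 log2 fold changes were positive and 15 negative, with a median of -0.08. Ezr, the membrane-to-actin linker ezrin, measured 26.7 ± 7.20 CPM in Thbs2KO and 16.4 ± 1.52 CPM in WT (log2 fold change 0.71, edgeR, Benjamini-Hochberg adjusted p = 0.21). Enah, an actin polymerisation factor of the Ena/VASP family, measured 95.6 ± 10.1 CPM in Thbs2KO and 135.2 ± 25.1 CPM in WT (log2 fold change -0.50, edgeR, adjusted p = 0.23). Of 8 genes listed for death signalling by unbound receptors, 6 log2 fold changes were positive and 2 negative, with a median of 0.03. Casp9, the initiator caspase of the apoptosome, measured 22.8 ± 2.11 CPM in Thbs2KO and 17.2 ± 0.360 CPM in WT (log2 fold change 0.41 with an SE of 0.0987, edgeR, Benjamini-Hochberg adjusted p = 0.135). Dapk1, the death-associated kinase that binds the UNC5 death domain and was singled out once its values were known, had a log2 fold change of 0.03. Errors are SD, n = 3 each.

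Of 10 basement membrane genes, listed because netrin-4 lies in basement membranes, 5 log2 fold changes were positive and 5 negative, with a median of -0.06. Lamc1, which encodes the laminin gamma-1 chain that netrin-4 binds and was named for that role, measured 581.2, 573.8 and 603.6 CPM in Thbs2KO, against 609.5, 530.4 and 536.7 CPM in WT, so the groups overlapped and the log2 fold change was 0.07. Lama5, the laminin alpha-5 chain, measured 10.0, 7.54 and 5.82 CPM in Thbs2KO, against 8.74, 39.0 and 22.9 CPM in WT, where WT replicate 1 lay within the Thbs2KO range (log2 fold change -1.59 with an SE of 0.520, edgeR, Benjamini-Hochberg adjusted p = 0.255). Hspg2, the heparan sulfate proteoglycan perlecan, measured 1557 ± 108 CPM in Thbs2KO and 1961 ± 276 CPM in WT (edgeR, Benjamini-Hochberg adjusted p = 0.317).

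**Figure D3:**
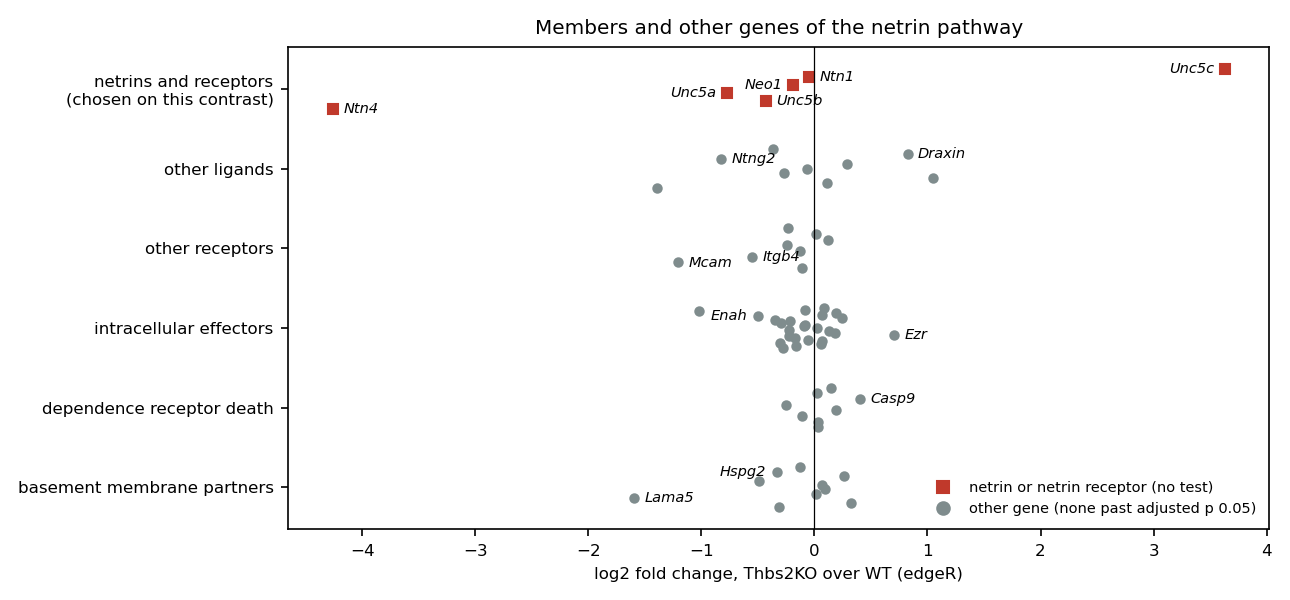
Log2 fold changes of Thbs2KO over WT (horizontal axis, edgeR) for the 6 tested members (red squares, no test) and the 60 tested genes of 5 netrin pathway lists (grey circles), with labels on named genes. Ntn4 at -4.26 and Unc5c at 3.63 lie at the ends of the axis, and the pathway genes lie between -1.59 (Lama5) and 1.05 (Rgma, not labelled).

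Genes were ranked by how near their pattern over the 6 libraries was to Ntn4 or Unc5c, among 10187 with at least 5 CPM. The measure was the root mean square difference in log2 CPM, each gene centred on its own mean over the 6 libraries. The gene nearest to Ntn4 was Thbs2 itself, at 0.679 log2 units. Next came Cemip, a hyaluronan-degrading protein (0.796), the formin-family gene Fhdc1 (0.973) and the kinase Sik1 (1.11). Cemip measured 17.5, 19.6 and 46.9 CPM in Thbs2KO replicates 1, 2 and 3, against 179.0, 163.9 and 398.4 CPM in WT replicates 1, 2 and 3. Sik1 measured 3.69, 4.94 and 3.96 CPM in Thbs2KO, against 12.05, 18.3 and 19.6 CPM in WT. Fhdc1 measured 2.08, 1.86 and 2.49 CPM in Thbs2KO, against 14.7, 9.64 and 15.1 CPM in WT. WT replicate 1 was the lowest WT library for Thbs2 and Sik1, as for Ntn4, whereas WT replicate 2 was the lowest for Cemip and Fhdc1.

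The genes nearest to Unc5c were Capn6, a calpain family member (0.750), the choline transporter Slc5a7 (0.784), Thsd4, a microfibril protein with thrombospondin repeats (0.822), Rps3a2 (0.835) and the secreted semaphorin Sema3c (0.860). Capn6 measured 61.4, 67.4 and 99.9 CPM in Thbs2KO replicates 1, 2 and 3, against 23.9, 23.0 and 4.44 CPM in WT replicates 1, 2 and 3. Slc5a7 measured 44.2, 59.8 and 97.0 CPM in Thbs2KO, against 20.97, 19.3 and 3.90 CPM in WT. In both, as in Unc5c, Thbs2KO replicate 3 was the highest library and WT replicate 3 the lowest. Rps3a2 is a near copy of the ribosomal protein gene Rps3a1, so its level depends on how shared reads were divided. The ranking rests on the same 6 libraries on which Ntn4 and Unc5c were picked, and it holds genes that differ between the genotypes by construction.

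**Figure D4:**
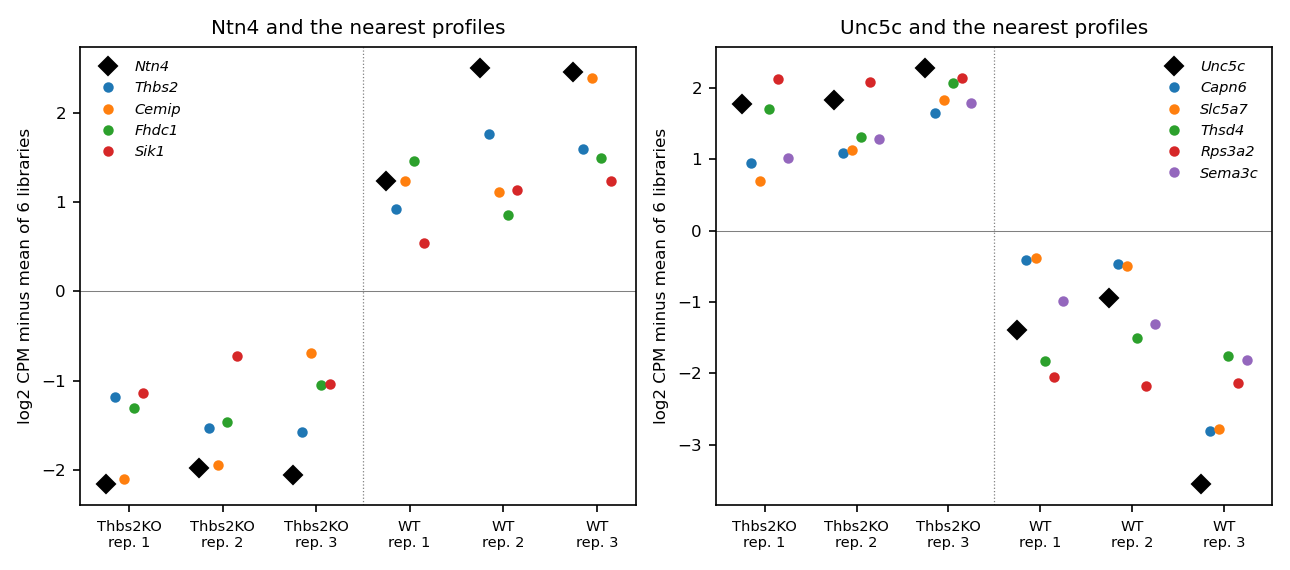
Log2 CPM minus the mean of the 6 libraries (vertical axes) for Ntn4 (left) and Unc5c (right), black diamonds, and for the 4 genes nearest to Ntn4 and the 5 nearest to Unc5c, coloured circles, in the 3 Thbs2KO and the 3 WT libraries. Thbs2 is nearest to Ntn4 at a root mean square difference of 0.679, and Capn6 is nearest to Unc5c at 0.750.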

How the data were processed

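The 6 RNA-seq libraries were of cultured CAFs, 3 Thbs2KO and 3 WT. Expected counts were deposited by the authors: RSEM estimates of reads for each gene, with no scaling across libraries. The submitters' processing notes list Trimmomatic 0.39, STAR 2.7.3a, RSEM and the build mm10. The annotation release is not given in the sources used here. Per the labels' protocols, the TruSeq v2 kit was used, and it does not mark strand. Values were rounded to whole numbers (3.80% to 3.88% per library were not whole). Genes passing filterByExpr (13590) were scaled with TMM and tested in edgeR 4.0.16 under R 4.3.3 with the robust quasi-likelihood test, genotype being the only term. P-values were adjusted over all tested genes by Benjamini-Hochberg. Standard errors came from the F statistic. These steps were tested on simulated counts. Profiles were compared on log2 CPM (prior count 2).

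Lengths and gene positions come from GENCODE M21 (GRCm38), whose identifiers, versions dropped, matched 99.96% of tested genes. Promoter windows come from RefSeq (GRCm38.p6), which matched 5 of the 8 genes. The members, lists, naming rule, tests and alternatives were chosen with earlier results of these data known. The text names all members, Thbs2, up to 3 changed or otherwise the 2 lowest-p genes of each pathway list, and the 5 genes nearest in profile to Ntn4 and Unc5c, leaving out predicted symbols; 1 gene of a pathway list and 1 near Ntn4 are not reported here. Alternatives were scaling by RLE or by upper quartile, limma-voom (limma 3.58.1), DESeq2 1.42.0, no filter, at least 1 CPM in 3 libraries, no robust estimation, a replicate block, each library left out, WT replicate 1 and Thbs2KO replicate 3 both left out, and Thbs2KO replicates 1 and 2 summed. Floors cover counting error only. Python 3.11.15 with matplotlib 3.10.9 drew the figures.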

Additional observations from a re-analysis of the deposited data

How the results depend on the processing

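Over all genes 148 changed. The count was 699 with DESeq2, 245 with no filter, 1519 with WT replicate 1 and Thbs2KO replicate 3 both left out, 40 with Thbs2KO replicates 1 and 2 summed, and 38 to 397 with 1 library left out. Leaving out Thbs2KO replicates 1, 2 and 3 in turn gave 38, 45 and 110 genes, and leaving out WT replicates 1, 2 and 3 in turn gave 397, 79 and 49 genes. The count of netrin pathway genes past the threshold was 0 with all libraries, 4 with DESeq2, 1 with no filter (Mcam), 15 with WT replicate 1 and Thbs2KO replicate 3 both left out, and 0 to 4 with 1 library left out. The cause of these shifts was not tested.

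The labels state no pairing of the replicate numbers. The correlation of same-numbered deviations from the group means was -0.29, 0.17 and -0.33, beside 0.40 for Thbs2KO replicate 3 with WT replicate 1. With 3 libraries in each group, whose deviations are tied to each other, these values cannot show whether same-numbered libraries shared a batch. With a replicate block 30 genes changed, the Thbs2 log2 fold change was -2.86 (edgeR, Benjamini-Hochberg adjusted p = 0.0784), and the pathway count was 0. Thbs2 was past the threshold in the other 15 of 16 alternatives. With no test, the log2 fold changes of Ntn4, Unc5b, Unc5c and Neo1 kept their sign and moved by less than 1 SD between libraries in all 16. Ntn1 changed sign in 4, and Unc5a, negative in all 16, moved by more in 1, to -0.36 with WT replicate 1 and Thbs2KO replicate 3 both left out. Unc5d and Dcc had too few reads for a fold change.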
